A study of Mus musculus with 12 samples.

Results

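The nuclear genes of respiratory complex I were followed in the liver RNA of 9 mice. Members were the genes of the count table whose symbol starts with Nduf, continues with a, b, c, s or v and then with a digit, which leaves out the assembly factors named Ndufaf. This rule matched 37 of 24411 genes, and all 37 passed the filter on low counts, so each was tested. Of these, 35 encode subunits of complex I. The remaining pair, Ndufa4 and Ndufa4l2, bears the family name but is not counted here as complex I: Ndufa4 protein is now assigned to cytochrome c oxidase and Ndufa4l2 is its paralog. Ndufb1 and the 7 subunit genes of mitochondrial DNA were not analysed here.

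Complex I oxidizes NADH and passes its electrons to ubiquinone while it pumps protons across the inner mitochondrial membrane. It is L-shaped and is put together from modules. The N module at the tip of the matrix arm binds NADH, the Q module below it reduces ubiquinone, and the membrane arm carries the proton pumps in a proximal and a distal part. Core subunits hold the flavin, the iron-sulfur clusters and the pumps, whereas supernumerary subunits surround them and are needed for assembly and stability. Hepatocytes are rich in mitochondria and depend on the respiratory chain for much of their metabolism.

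The mice were of the C57BL/6 background, 3 months of age, and all carried Atg7flox/flox, 2 alleles of Atg7 that Cre can delete. Cont mice (n = 3) carried no Cre. Atg7-KO mice (n = 3) also carried Alb-Cre, which is driven by the albumin promoter and removes Atg7, an enzyme needed to form autophagosomes, in hepatocytes. Atg7-KO;p62T352A mice (n = 3) carried Alb-Cre together with both copies of a knock-in allele of Sqstm1, the gene of the autophagy receptor p62. The exchange, made by prime editing in embryonic stem cells, gives a p62 that does not retain KEAP1, the protein that marks the transcription factor NRF2 for degradation. A further group of mice with the exchange and without Cre was not analysed here. The comparisons therefore ask how complex I mRNA differed in livers without hepatocyte Atg7, and whether it differed again where p62 could not hold KEAP1.

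Total counts ranged from 9671073 to 23285134 per mouse. Levels are given as CPM, the usual counts scaled to library size, here with TMM factors. A gene was called when its fold change exceeded 1.5 at a Benjamini-Hochberg adjusted p under 0.05 in edgeR's quasi-likelihood test over 13922 genes. Atg7 was at 46.4, 44.2 and 55.4 CPM in cont mice, at 10.1, 9.57 and 12.0 in Atg7-KO mice and at 29.7, 27.4 and 29.5 in Atg7-KO;p62T352A mice. The targeted gene was thus lower than in cont in every mouse with Alb-Cre, but its level in Atg7-KO;p62T352A mice lay above that in Atg7-KO mice by 1.45 on the log2 scale (SE 0.17, adjusted p = 0.000164). These are counts of the whole gene, which also holds exons outside the deleted part. Sqstm1 was at 505, 341 and 314 CPM in cont, at 911, 871 and 960 in Atg7-KO and at 497, 626 and 511 in Atg7-KO;p62T352A mice. The mice numbered 1 of each genotype had between 7 and 28 counts of Xist, the RNA of the inactive X chromosome, and the other mice at least 8578.

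Promoter sequences of the members that fell most in each module are shown first, so that the genes described later can be placed. The RefSeq table (build GRCm38.p6) held a window for 32 of the 37 members. Each window has 250 bases before and 50 bases after an annotated start and is written 5′ to 3′ on the strand of the gene. Capitals mark the letters of a searched motif on either strand: GCGCATGCG (NRF1), CCGGAAG (ETS factors such as GABP), AAGATGGC (YY1), TCAAGGTCA (ERR), TGACNNNGC (antioxidant response element, ARE) and GGGCGG (SP1). Ndufv3 of the N module lies on the plus strand with its window at chr17:31519865-31520164, Ndufa5 of the Q module on the minus strand at chr6:24527641-24527940, Ndufa1 of the proximal membrane module on the minus strand at chrX:37191189-37191488, and Ndufb7 of the distal membrane module on the plus strand at chr8:83566508-83566807.
Ndufv3: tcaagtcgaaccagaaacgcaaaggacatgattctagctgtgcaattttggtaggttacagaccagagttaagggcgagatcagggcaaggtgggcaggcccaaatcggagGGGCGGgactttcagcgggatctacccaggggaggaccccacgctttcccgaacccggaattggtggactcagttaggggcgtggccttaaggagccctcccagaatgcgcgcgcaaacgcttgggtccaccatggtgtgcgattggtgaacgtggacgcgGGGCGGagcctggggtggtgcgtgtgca
Ndufa5: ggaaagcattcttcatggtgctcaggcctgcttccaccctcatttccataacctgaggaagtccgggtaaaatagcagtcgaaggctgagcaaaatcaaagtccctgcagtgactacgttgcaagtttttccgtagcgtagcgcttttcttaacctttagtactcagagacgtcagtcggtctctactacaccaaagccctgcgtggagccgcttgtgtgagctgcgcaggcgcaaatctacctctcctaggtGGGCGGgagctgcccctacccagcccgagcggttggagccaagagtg
Ndufa1: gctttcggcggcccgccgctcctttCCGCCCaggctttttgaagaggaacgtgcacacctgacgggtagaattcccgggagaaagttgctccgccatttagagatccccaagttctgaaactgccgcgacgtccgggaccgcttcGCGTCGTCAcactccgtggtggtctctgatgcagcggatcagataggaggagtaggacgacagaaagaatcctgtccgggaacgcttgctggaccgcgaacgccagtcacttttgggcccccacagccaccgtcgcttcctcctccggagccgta
Ndufb7: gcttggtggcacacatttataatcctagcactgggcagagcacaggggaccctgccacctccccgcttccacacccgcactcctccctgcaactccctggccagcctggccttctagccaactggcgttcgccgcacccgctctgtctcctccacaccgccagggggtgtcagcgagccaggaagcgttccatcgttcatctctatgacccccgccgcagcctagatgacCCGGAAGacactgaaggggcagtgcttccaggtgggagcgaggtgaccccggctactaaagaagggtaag
The Ndufv3 window held the SP1 letters 139 bases before the start and from base 23 of the transcript, and the Ndufa5 window from base 4. That of Ndufa1 held the ARE letters 105 bases and the SP1 letters 225 bases before the start. The Ndufb7 window held the ETS letters 20 bases before the start. A match of letters does not show that a factor binds there.

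Over the members, the YY1 letters were those most unlike the whole genome in frequency. They were found in the windows of 7 of 32 members (21.9%) and of 3.19% of all 27025 genes with a window, and in all 7 they began between bases 23 and 39 of the transcript, in the forward direction. These letters contain an ATG. The SP1 letters were in 43.8% of members and 38.2% of all genes, the ARE letters in 21.9% and 14.0%, the ETS letters in 12.5% and 9.93%, and the NRF1 letters in 6.25% (2 members, Ndufa8 and Ndufa11) and 1.95%. No member window held the ERR letters, which were in 0.466% of all windows. The 7 stretches with the YY1 letters, chosen for display after their share was seen, are given below as 30 bases of the gene's strand, with those letters in capitals. Ndufa3 lies at chr7:3617384-3617413 (plus strand), Ndufa9 at chr6:126849097-126849126 (minus), Ndufb8 at chr19:44555393-44555422 (minus), Ndufc1 at chr3:51408915-51408944 (minus), Ndufs4 at chr13:114388045-114388074 (minus), Ndufs6 at chr13:73328433-73328462 (minus) and Ndufs7 at chr10:80249462-80249491 (plus).
Ndufa3: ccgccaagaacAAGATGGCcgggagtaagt
Ndufa9: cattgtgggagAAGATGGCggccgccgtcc
Ndufb8: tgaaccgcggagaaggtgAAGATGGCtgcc
Ndufc1: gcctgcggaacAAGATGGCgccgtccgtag
Ndufs4: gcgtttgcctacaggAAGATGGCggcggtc
Ndufs6: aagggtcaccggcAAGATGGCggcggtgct
Ndufs7: aggccgaggccAAGATGGCggcgctggcgg
Of these 7 members, 5 were called lower in Atg7-KO mice and 6 higher in Atg7-KO;p62T352A than in Atg7-KO mice. Of the 25 members with a window but without the letters, 13 and 19 were called so. The medians were -0.69 and -0.80 on the log2 scale in the first comparison and 1.25 in both sets in the second. Over all genes tested, 22.1% were called lower in the first comparison and 24.7% higher in the second. The difference between the sets was not tested.

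Complex I mRNA fell in livers without hepatocyte Atg7. Summed over the 35 subunits, it was 4400, 3980 and 5107 CPM in cont mice and 2728, 2395 and 2650 CPM in Atg7-KO mice, so that the mean of Atg7-KO mice (2591 ± 174 CPM, SD, n = 3) was 57.6% of that of cont mice (4496 ± 569 CPM, SD, n = 3). Of the 37 members, 22 were called lower (59.5%) and none higher, where 22.1% of all genes tested were called lower and 21.6% higher. The median log2 fold change of the members was -0.69, against -0.03 over all genes tested. In 31 members the highest Atg7-KO mouse lay below the lowest cont mouse, which held for 26.3% of all genes tested. The subunits lie on 15 chromosomes, with at most 5 on any of them.

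**Figure D1:**
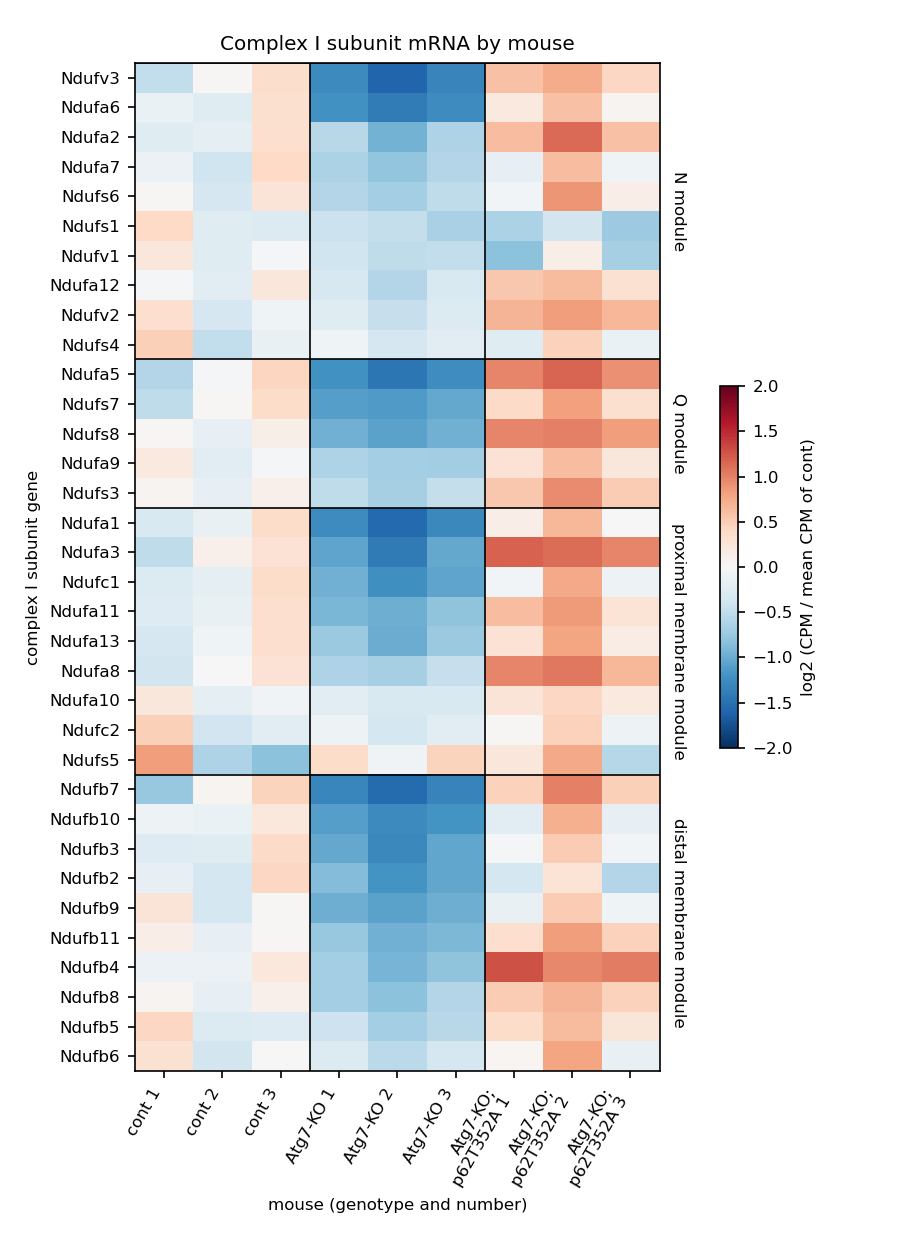
Level of 34 of the 35 complex I subunit genes (rows, by module) in each of the 9 mice (columns), as the log2 ratio of its CPM to the mean of the 3 cont mice, with the colour scale limited to -2 and 2. The Atg7-KO columns are blue in nearly every row except Ndufs5, and Atg7-KO;p62T352A mouse 2 holds the highest level of its genotype in 32 of 34 rows.

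The modules shared this direction. The summed level of the N module was 60.9% of cont in Atg7-KO mice, that of the Q module 57.1%, that of the proximal membrane module 58.4% and that of the distal membrane module 53.9%. Called lower were 3 of 10 N module genes (median log2 fold change -0.55), 5 of 6 Q module genes (-0.83), 5 of 9 proximal membrane genes (-0.82) and 8 of 10 distal membrane genes (-0.94). These shares were 30%, 83.3%, 55.6% and 80%, against 22.1% of all genes tested, so that of the N module lay near the share of all genes. Differences between modules were not tested. Of the 7 core subunits of the matrix arm 3 were called lower, Ndufs7 and Ndufs8 among them, and of the 28 supernumerary subunits 18.

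**Figure D2:**
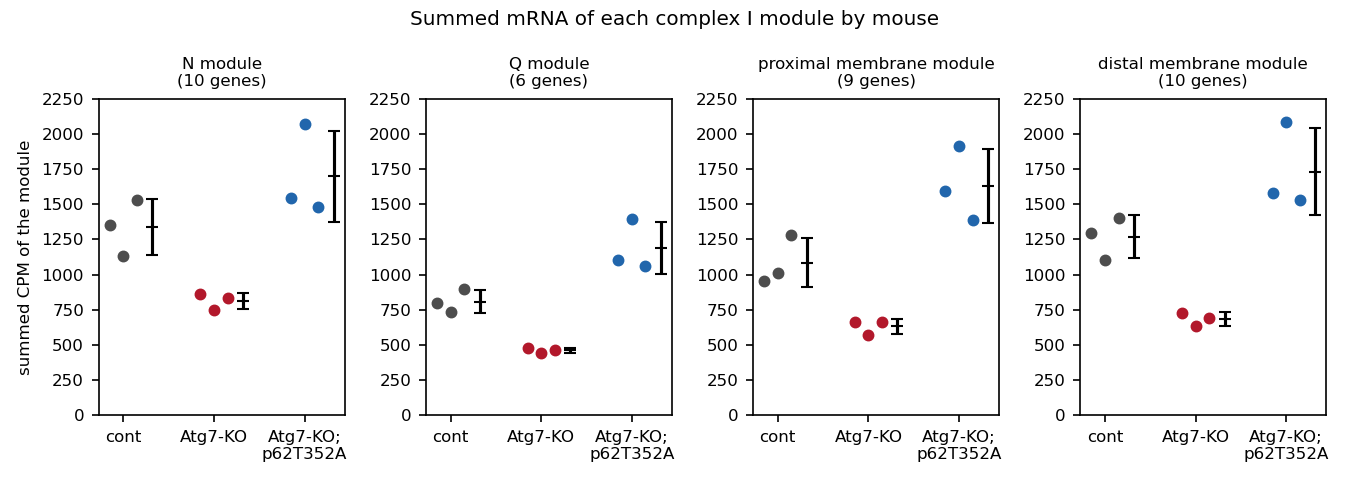
Summed CPM of the genes of each complex I module in each mouse (points, left to right mouse 1 to 3), with the mean and SD of each genotype beside them (n = 3). In each module the 3 Atg7-KO mice lie below all cont mice, and mouse 2 of Atg7-KO;p62T352A lies highest.

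In the N module, which takes electrons from NADH, the largest fall was that of Ndufv3, a small supernumerary subunit beside the NADH site. Ndufv3 was at 130, 185 and 235 CPM in cont mice and at 75.7, 60.9 and 73.3 in Atg7-KO mice (log2 fold change -1.39, SE 0.23, adjusted p = 0.00132). Ndufa6, which anchors an acyl carrier protein on the matrix arm, was at 235, 218 and 322 CPM in cont and at 112, 98.0 and 108 in Atg7-KO mice (log2 fold change -1.29, SE 0.22, adjusted p = 0.00134). Neither gene overlapped between the genotypes. The smallest change was that of Ndufs4, a subunit needed for the N module to stay attached, at 85.8, 43.8 and 55.6 CPM in cont and 58.4, 49.1 and 53.4 in Atg7-KO mice. The 3 Atg7-KO values of Ndufs4 lie within the cont range (log2 fold change -0.20, SE 0.27, adjusted p = 0.563). Ndufa2 was the other N module gene called lower. The 3 core subunits of this module did not pass: Ndufv1, which binds NADH and the flavin, had a log2 fold change of -0.47 (adjusted p = 0.151), Ndufs1, the largest subunit, -0.51 (adjusted p = 0.0725), and Ndufv2, which holds an iron-sulfur cluster, -0.33 (adjusted p = 0.2). Cont mouse 1 had the highest level of all 3, for Ndufs1 at 132 CPM against 84.5 and 82.4 in the other cont mice. The 3 further supernumerary genes, Ndufs6, Ndufa7 and Ndufa12, had log2 fold changes from -0.67 to -0.40 and did not pass.

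In the Q module, where electrons reach ubiquinone, Ndufa5 fell most. This supernumerary subunit on the flank of the module was at 66.6, 98.2 and 134 CPM in cont and at 42.8, 36.5 and 41.9 in Atg7-KO mice (log2 fold change -1.30, SE 0.24, adjusted p = 0.0023). Ndufs7, which carries the last iron-sulfur cluster before ubiquinone, was at 94.7, 137 and 174 CPM in cont and at 63.3, 61.8 and 66.6 in Atg7-KO mice (log2 fold change -1.08, SE 0.24, adjusted p = 0.00543). Both genes were lowest in cont mouse 1 among the cont mice, yet that mouse lay above all Atg7-KO mice. Ndufs8, another iron-sulfur subunit, was at 107, 93.6 and 114 CPM in cont and at 54.0, 49.9 and 53.8 in Atg7-KO mice (log2 fold change -0.99, SE 0.15, adjusted p = 0.000864). Ndufs3, a core subunit that enters assembly early, was at 152, 131 and 157 CPM in cont and at 103, 93.1 and 105 in Atg7-KO mice. Its fold change of -0.55 on the log2 scale (SE 0.18, adjusted p = 0.0308) was under the 1.5-fold limit, although the groups did not overlap. Ndufa9, an NADPH-binding subunit, was called lower with a log2 fold change of -0.67.

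In the proximal membrane module, Ndufa1 fell most, a single-span subunit encoded on the X chromosome. It was at 102, 114 and 164 CPM in cont and at 53.3, 43.1 and 52.1 in Atg7-KO mice (log2 fold change -1.36, SE 0.25, adjusted p = 0.00196). Ndufa3, a small membrane subunit, was at 145, 219 and 251 CPM in cont and at 98.2, 76.9 and 101 in Atg7-KO mice (log2 fold change -1.16, SE 0.23, adjusted p = 0.00309). Both genotypes were apart for Ndufa1 and Ndufa3. Ndufc1, Ndufa11 and Ndufa13 were also called lower, with log2 fold changes from -1.07 to -0.82. Ndufa8, a cysteine-rich subunit facing the intermembrane space, missed the fold limit at -0.58 (SE 0.20, adjusted p = 0.0411), and Ndufa10 (-0.27) and Ndufc2 (-0.23) did not pass either. Ndufs5, which has a similar cysteine motif, was the single member with a positive value. It was at 35.9, 13.1 and 11.4 CPM in cont and at 26.1, 19.3 and 27.4 in Atg7-KO mice (log2 fold change 0.26, SE 0.45, adjusted p = 0.661). Cont mouse 1 stood above every other mouse for Ndufs5, without this mouse the gene was called higher (0.98, adjusted p = 0.0295), and 15.7% of its 75-base stretches occur in another gene, BC002163, so that its level is uncertain.

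In the distal membrane module, Ndufb7, a cysteine-rich subunit on the intermembrane space side, was at 69.5, 122 and 160 CPM in cont and at 47.3, 40.4 and 46.1 in Atg7-KO mice (log2 fold change -1.39, SE 0.29, adjusted p = 0.00438). Ndufb10, of the same side, was at 120, 117 and 148 CPM in cont and at 60.02, 53.3 and 56.1 in Atg7-KO mice (log2 fold change -1.19, SE 0.26, adjusted p = 0.00478). All Atg7-KO mice lay below all cont mice for both. Ndufb2, Ndufb3, Ndufb4, Ndufb8, Ndufb9 and Ndufb11 were also called lower, with log2 fold changes from -1.11 to -0.69. Ndufb6, a single-span subunit, was at 101, 63.0 and 80.7 CPM in cont and at 67.5, 56.2 and 63.5 in Atg7-KO mice, with overlapping groups (log2 fold change -0.39, SE 0.27, adjusted p = 0.264). Ndufb5 (-0.55, adjusted p = 0.0683) did not pass.

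The genes outside the complex that share its name differed from each other in level. Ndufa4 was at 525, 272 and 369 CPM in cont mice and at 348, 248 and 261 in Atg7-KO mice, which overlap (log2 fold change -0.44, SE 0.39, adjusted p = 0.376). Ndufa4l2, known as a target of hypoxia signalling, was at 2.18, 5.11 and 4.18 CPM in cont and at 1.98, 1.69 and 1.54 in Atg7-KO mice and was called lower (log2 fold change -1.12, SE 0.34, adjusted p = 0.0224). The call of Ndufa4l2 was lost without any of 4 single mice, cont 2, cont 3, Atg7-KO 2 or Atg7-KO 3, with adjusted p between 0.0557 and 0.0805.

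**Figure D3:**
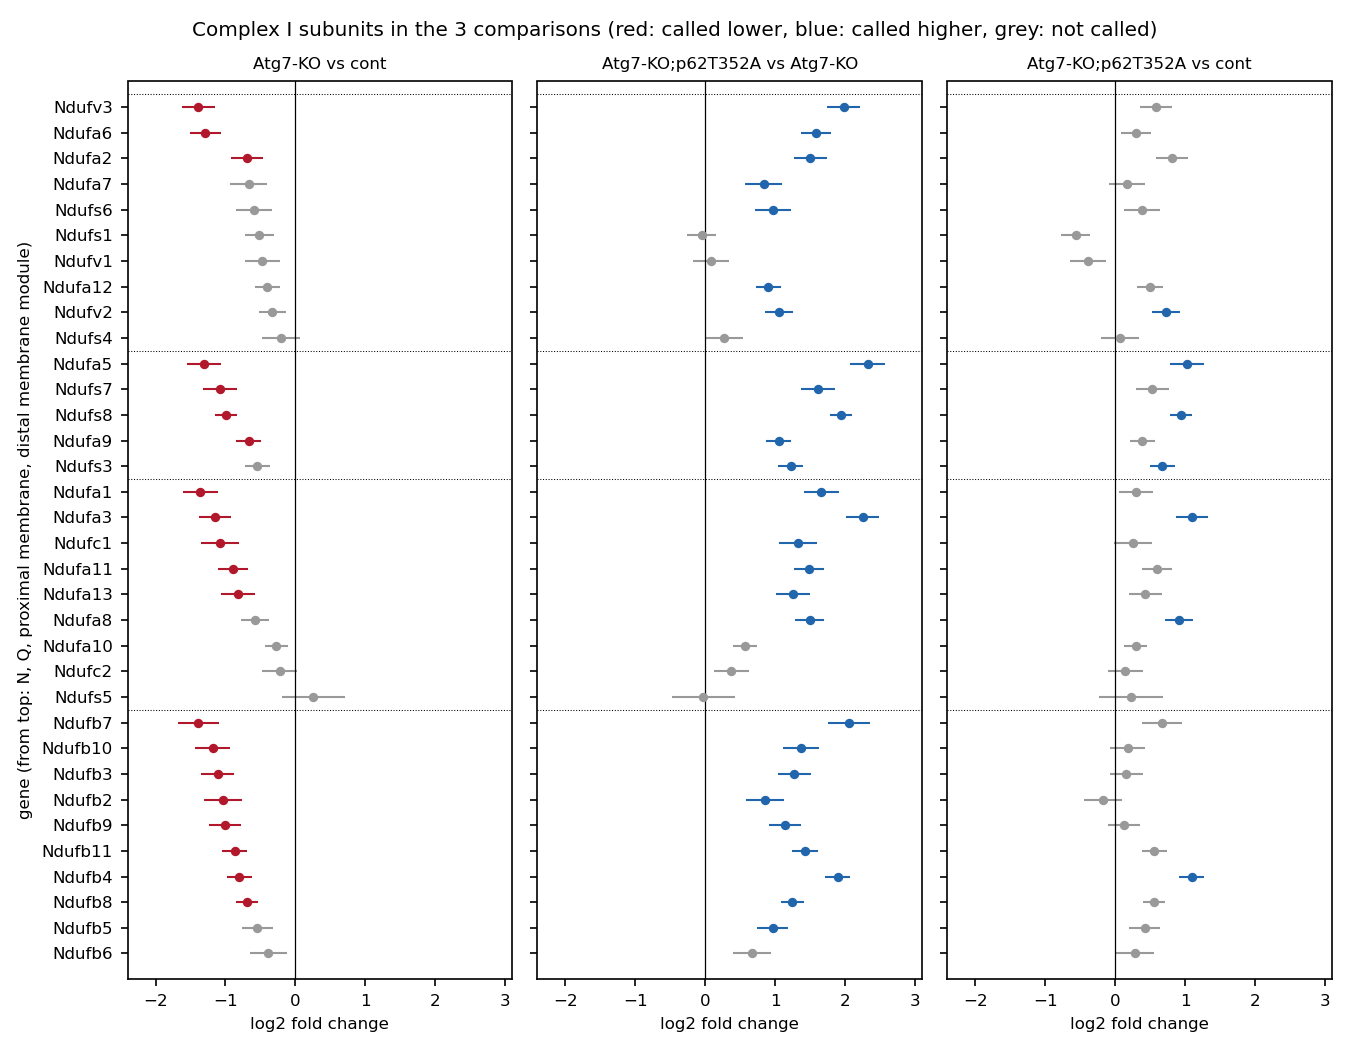
Log2 fold change of 34 of the 35 complex I subunits (points, with the SE as bars) in the 3 comparisons, by module and in the order of the first comparison. Red and blue mark genes called lower and higher, and grey marks genes not called. In the left panel 20 of 34 genes are red, and in the middle panel 27 of 34 are blue.

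In the presence of p62T352A, complex I mRNA of Alb-Cre livers was higher than in Atg7-KO. The summed level of the 35 subunits was 5819, 7468 and 5465 CPM in the Atg7-KO;p62T352A mice, with a mean of 6251 ± 1069 CPM (SD, n = 3), so that the lowest of them exceeded the highest Atg7-KO mouse. Of the 37 members, 29 were called higher (78.4%) and none lower, where 24.7% of all genes tested were called higher and 26.2% lower. The median log2 fold change was 1.22, against 0.00 over all genes. All 22 members called lower in Atg7-KO mice were among the 29, and the 7 beyond them were Ndufv2, Ndufs3, Ndufs6, Ndufa7, Ndufa8, Ndufa12 and Ndufb5. Both comparisons use the same Atg7-KO mice, so that a low value in these mice enters both. Atg7 mRNA was also higher in the same mice than in Atg7-KO mice, and its part in this difference was not tested. In 32 members the groups did not overlap, as in 36.4% of all genes tested. By module, 7 of 10 N module, 6 of 6 Q module, 6 of 9 proximal membrane and 9 of 10 distal membrane genes were called higher, with medians of 0.94, 1.42, 1.33 and 1.26.

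The largest difference was that of Ndufa5 of the Q module. It was at 195, 223 and 188 CPM in Atg7-KO;p62T352A mice, against at most 42.8 in Atg7-KO mice (log2 fold change 2.32, SE 0.25, adjusted p = 0.000126). Ndufa3 was at 464, 444 and 403 CPM in these mice (log2 fold change 2.25, SE 0.24, adjusted p = 0.00011), and Ndufb7 at 160, 236 and 162 CPM (log2 fold change 2.06, SE 0.30, adjusted p = 0.000506). The 3 genes belong to 3 different modules. Ndufv3 at 275, 307 and 245 CPM (log2 fold change 1.98, adjusted p = 0.000207) and Ndufs8 at 206, 209 and 188 CPM (1.94, adjusted p = 3.86e-05) followed. Ndufs7 (1.61), Ndufa6 (1.58), Ndufa1 (1.66) and Ndufb10 (1.36) were also called higher.

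The 8 members not called here were not called in Atg7-KO mice against cont either. Ndufs1 was at 64.5, 77.0 and 60.3 CPM in Atg7-KO;p62T352A mice, which overlaps with the 63.8 to 74.3 CPM of Atg7-KO mice (log2 fold change -0.05, SE 0.21, adjusted p = 0.849). Ndufs5 was at 23.6, 34.1 and 13.6 CPM (log2 fold change -0.03, SE 0.45, adjusted p = 0.959). Both groups of Ndufs5 overlap as well. Ndufv1 was at 71.9, 139 and 80.5 CPM (log2 fold change 0.08, SE 0.25, adjusted p = 0.798) and Ndufs4 at 52.3, 85.2 and 56.0 CPM (0.27, adjusted p = 0.43). Ndufv2, which forms the NADH-oxidizing tip together with Ndufv1 and Ndufs1, was at 248, 276 and 245 CPM and was called higher (1.06, SE 0.20, adjusted p = 0.00196). The difference between Ndufv2 and the other two was not tested. Ndufb6 (0.67, adjusted p = 0.0583), Ndufa10 (0.57, under the fold limit) and Ndufc2 (0.37) were not called. Of the pair that is not complex I, Ndufa4 was at 197, 509 and 201 CPM, a level set apart by mouse 2 (log2 fold change 0.08, SE 0.39, adjusted p = 0.874, and -0.52 without this mouse). Ndufa4l2 was at 4.36, 3.22 and 2.94 CPM and was called higher (1.01, SE 0.34, adjusted p = 0.0282), a call that was lost without any of 4 single mice, the 3 Atg7-KO mice and Atg7-KO;p62T352A mouse 1 (adjusted p between 0.0532 and 0.0967).

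Compared with cont, few members passed in Atg7-KO;p62T352A mice. The summed level was 139% of cont, with each of the 3 mice above all cont mice. Of the 37 members, 7 were called higher and none lower, where 6.25% of all genes tested were called higher and 5.34% lower, and the median log2 fold change was 0.38 against 0.00 over all genes. The groups did not overlap, with the higher levels in Atg7-KO;p62T352A mice, in 14 members, and in 15.5% of all genes. The 7 were Ndufb4, Ndufa3, Ndufa5, Ndufs8, Ndufa8, Ndufv2 and Ndufs3, which come from all 4 modules. Ndufb4, a membrane subunit, was at 120, 121 and 150 CPM in cont and at 314, 255 and 265 CPM in Atg7-KO;p62T352A mice (log2 fold change 1.09, SE 0.17, adjusted p = 0.00896), and 17.2% of its 75-base stretches occur in Ndufb4c. Ndufa3 had a log2 fold change of 1.09 (SE 0.23, adjusted p = 0.0179), Ndufa5 of 1.02 (SE 0.24, adjusted p = 0.027) and Ndufs8 of 0.94 (SE 0.15, adjusted p = 0.00937). Ndufa8, at 92.5, 120 and 147 CPM in cont and at 236, 248 and 190 CPM in Atg7-KO;p62T352A mice, had 0.91 (SE 0.20, adjusted p = 0.0235). Ndufv2 had 0.73 (SE 0.20, adjusted p = 0.043) and Ndufs3 0.68 (SE 0.18, adjusted p = 0.0386). These calls were not stable. Without cont mouse 2, any of the 3 Atg7-KO mice, or any of the 3 Atg7-KO;p62T352A mice, only 2 or 3 members were called. The Atg7-KO mice are not compared here but share the estimate of the spread. Without any of them Ndufa5 stayed at 1.02, while its adjusted p was 0.0548 to 0.0566. Ndufb4 and Ndufs8 alone were called whichever mouse was left out. Ndufs1 was the member lowest against cont (-0.57, SE 0.21, adjusted p = 0.116) and the only 1 whose groups did not overlap with lower levels in Atg7-KO;p62T352A mice, as in 11.2% of all genes.

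Fold change varied with transcript length in every comparison across the subunits, and across all genes mainly where Atg7-KO;p62T352A mice were involved. The longest coding transcripts of the subunits are short, with a median of 971 bases (419 to 4371) against 3060 bases over all genes tested. Across the 35 subunits, Spearman's rho between length and log2 fold change was 0.32 for Atg7-KO against cont, -0.39 for Atg7-KO;p62T352A against Atg7-KO and -0.21 for Atg7-KO;p62T352A against cont, and across all 13822 genes with a length it was 0.02, -0.17 and -0.30. These are descriptions across genes measured in the same libraries, and genes are not independent replicates. With an offset for transcript length in the fit, 22 members were again called lower in Atg7-KO mice (median -0.72), 21 of them in both fits. Of the 29 members called higher in Atg7-KO;p62T352A than in Atg7-KO mice, 22 were still called, and the median fell to 0.69. Against cont, Ndufb4 alone was called higher (0.71, adjusted p = 0.0433) and the median was 0.04. Over all genes tested, the medians in that fit were -0.10, 0.01 and -0.05 in the same order of comparisons. Ndufa5 (1.78), Ndufv3 (1.78), Ndufs8 (1.49), Ndufb4 (1.44) and Ndufa3 (1.41) had the largest values against Atg7-KO in that fit. Ndufs7 was at 1.13, Ndufa6 at 0.79, Ndufb10 at 0.68 and Ndufa1 at 0.65 there, all still called higher. Values below 0 were found for 7 members, none of them called, of which Ndufs5 (-0.75) and Ndufa4 (-0.74) were the lowest. By module, the medians against Atg7-KO were 0.41 in the N module, 0.97 in the Q module, 0.91 in the proximal and 0.79 in the distal membrane module. What part length had in these differences was not tested.

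**Figure D4:**
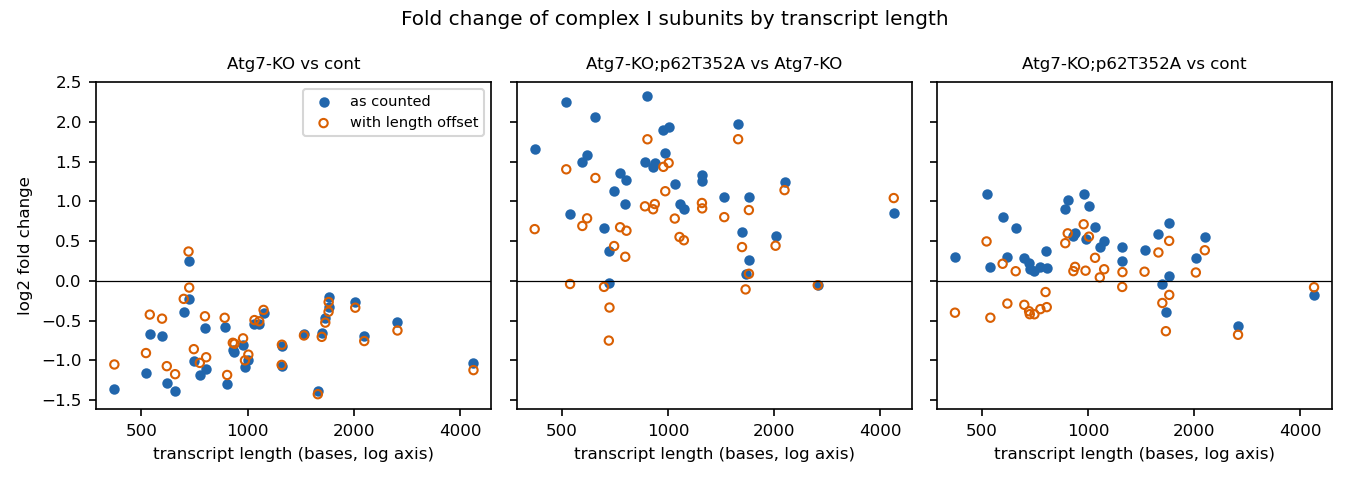
Log2 fold change of the 35 complex I subunits against the length of their longest coding transcript (log axis) in the 3 comparisons, without (filled) and with (open) an offset for transcript length. The open points lie lower than the filled points for most of the shorter transcripts in the middle and right panels, where the median of all members fell from 1.22 to 0.69 and from 0.38 to 0.04.

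Members also varied together among mice of one genotype. Atg7-KO;p62T352A mouse 2 had the highest level of its genotype in 33 of the 35 subunits, where it was highest in 34.4% of all genes tested. Atg7-KO mouse 2 was the lowest of its genotype in 31 subunits, against 30.2% of all genes. Cont mouse 3 was the highest in 22 subunits, against 34.9% of all genes, and cont mouse 2 the lowest in 20, against 23.7%. Cont mouse 1 was the highest in 13 subunits (37.1%) and the lowest in 13. Over all genes tested, it was the highest in 41.11% and the lowest in 44.55%, each more often than either other cont mouse. It also had 23285134 total counts, against 11108107 and 9671073 in cont mice 2 and 3. Without Atg7-KO;p62T352A mouse 2, 26 members were called higher than in Atg7-KO mice, with a median of 1.00. With the 3 mice numbered 1 left out, 21 members were called lower in Atg7-KO mice and 31 higher in Atg7-KO;p62T352A than in Atg7-KO mice, and 20 and 29 of these were also called with all mice.

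Marker mRNA of the cell types of the liver differed in level between the 3 genotypes, so the hepatocyte markers and those of other cells stand beside the counts of members. In these bulk samples, fewer cells of a type and less RNA per cell cannot be told apart. Of 6 hepatocyte markers, 5 were called lower in Atg7-KO mice, and their summed level was 70210 to 121800 CPM in cont mice. It was 35480 to 37620 CPM in Atg7-KO mice and 108400 to 123300 CPM in Atg7-KO;p62T352A mice. Most of this sum was Alb, with a mean of 62570 of 90480 CPM in cont mice. Against Atg7-KO, 5 of the 6 were called higher in Atg7-KO;p62T352A mice, but not Cps1 (0.395, adjusted p = 0.25). Cps1 was also the only 1 called lower than in cont there (-1.17, adjusted p = 0.028), and none was called higher. Of 24 markers of other cells, 18 rose and 1 fell in Atg7-KO mice, and their summed level was 550 to 597 CPM in cont mice. It was 2446 to 2614 CPM in Atg7-KO mice and 524 to 732 CPM in Atg7-KO;p62T352A mice. No marker was at 0 in any mouse. Cholangiocyte markers rose in 4 of 5 cases in Atg7-KO mice (33.4 to 51.2, 823 to 1018 and 180 to 265 CPM in the 3 genotypes in the same order), macrophage markers in 5 of 6 (211 to 276, 804 to 849 and 148 to 284), stellate cell markers in 4 of 5 (53.1 to 63.5, 443 to 639 and 76.2 to 143) and lymphocyte markers in 3 of 4 (12.9 to 24.7, 57.2 to 63.1 and 18.7 to 21.9). Of the 4 endothelial markers, 2 rose and 1 fell in Atg7-KO mice (167 to 231, 161 to 170 and 81.2 to 87.1). Most of the cholangiocyte sum was Spp1, with a mean of 871 of 924 CPM in Atg7-KO and 172 of 210 CPM in Atg7-KO;p62T352A mice. Krt7 was the cholangiocyte marker not called in Atg7-KO mice. Against Atg7-KO, 3 of the 5 were called lower in Atg7-KO;p62T352A mice, but not Krt7 or Sox9 (0.26 for Sox9, adjusted p = 0.406). The part of these markers in the complex I results was not tested.

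Assembly factors build the complex and do not remain in it. Of the 20 genes listed with them, 19 were in the table. Among these, Ndufab1 is no assembly factor but the acyl carrier protein, a subunit that stays in the complex and that the symbol rule does not match. Of the 18 others, 6 were called lower in Atg7-KO mice (33.3%, against 22.1% of all genes tested) and none higher, with a median log2 fold change of -0.46. Against Atg7-KO, 8 of the 18 were called higher in Atg7-KO;p62T352A mice (44.4%, against 24.7% of all genes tested) and 1 lower, with a median of 0.53. Counted with Ndufab1, the medians were -0.45 and 0.49. Whether these shares differ from those of all genes was not tested. The lowest was Atp5sl, which the list holds as Dmac2, a factor for the distal membrane arm. It was at 26.9, 112 and 152 CPM in cont and at 17.7, 19.1 and 19.6 CPM in Atg7-KO mice (log2 fold change -2.36, SE 0.49, adjusted p = 0.00386), with cont mouse 1 close to the Atg7-KO mice. The highest was Nubpl, which delivers iron-sulfur clusters to complex I, at 10.9, 4.82 and 4.07 CPM in cont and 11.1, 9.00 and 11.3 CPM in Atg7-KO mice (0.64, SE 0.34, adjusted p = 0.144). Nubpl was lower in Atg7-KO;p62T352A than in Atg7-KO mice, at 2.07 to 2.61 CPM (-2.13, SE 0.36, adjusted p = 0.00108), whereas no subunit was called lower in that comparison. Ndufab1 was not called in any comparison (-0.23, 0.13 and -0.10).

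The next list held 14 regulators known for respiratory genes. Tfam, Tfb1m, Tfb2m and Polrmt among them act on mitochondrial DNA, not on the nuclear genes of the members. In Atg7-KO mice 7 of the 14 were called lower (50%, against 22.1% of all genes tested) and none higher, with a median of -0.84. Against Atg7-KO, 8 were called higher in Atg7-KO;p62T352A mice (57.1%, against 24.7% of all genes tested) and none lower. Against cont, Gabpa (-0.99) and Ppara (-0.76) were called lower in these mice and none higher. Of all genes tested, 5.34% were called lower and 6.25% higher there. Esrrg, an estrogen-related receptor, was the lowest, at 4.58, 3.31 and 5.28 CPM in cont and 0.242, 0.329 and 0.469 CPM in Atg7-KO mice (log2 fold change -3.62, SE 0.51, adjusted p = 0.000528). Yy1 was the highest, at 44.0, 28.7 and 26.3 CPM in cont and 42.9, 43.1 and 42.8 CPM in Atg7-KO mice (0.38, SE 0.20, adjusted p = 0.147). The genes called lower beside Esrrg were Ppargc1b, Ppara, Gabpb1, Tfb2m, Esrra and Polrmt, with log2 fold changes from -3.58 to -0.88. The value of -3.58 (SE 0.73) was that of Ppargc1b. This gene was at 3.21, 33.9 and 29.3 CPM in cont and at 1.64, 1.89 and 1.96 CPM in Atg7-KO mice, with cont mouse 1 close to the latter.

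The other complexes of the chain and ATP synthase were examined in the same way. Of 38 nuclear subunits of complexes II to V, 19 were called lower in Atg7-KO mice and none higher, with a median of -0.68. Against Atg7-KO, 21 were called higher in Atg7-KO;p62T352A mice and none lower, with a median of 0.81. The shares called were 50% and 55.3%, against 22.1% and 24.7% of all genes tested. With the offset for transcript length these medians were -0.54 and 0.30. Whether complex I differed from them was not tested. The lowest was Uqcrq, a small subunit of complex III, at 480, 584 and 675 CPM in cont, 234, 181 and 213 CPM in Atg7-KO and 1143, 1179 and 968 CPM in Atg7-KO;p62T352A mice (log2 fold change in Atg7-KO -1.47, SE 0.20, adjusted p = 0.000491). The highest was Sdhd, a membrane anchor of complex II, at 260, 122 and 104 CPM in cont and 192, 174 and 174 CPM in Atg7-KO mice (0.15, SE 0.32, adjusted p = 0.718).

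**Figure D5:**
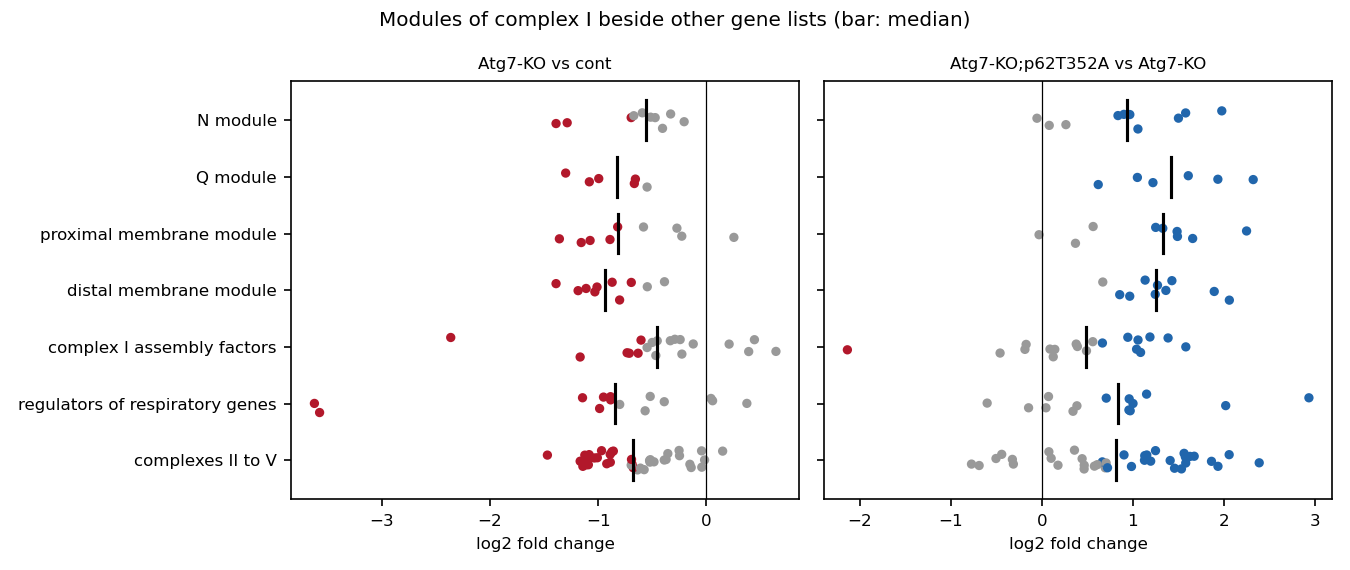
Log2 fold change of each gene of the 4 complex I modules, the assembly factors with Ndufab1, the regulators and complexes II to V (points, spread vertically at random for display) in 2 comparisons, with the median of each list as a bar. Red and blue mark genes called lower and higher. The medians lie between -0.94 and -0.45 on the left and between 0.49 and 1.42 on the right.

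Levels of different members were compared per kilobase of the longest annotated transcript, in cont mice. Ndufa1 (303 ± 78.7 CPM per kb, SD, n = 3) and Ndufb9 (294 ± 60.7) were the highest, and Ndufb2 (18.2 ± 5.23) and Ndufb7 (26.4 ± 10.2) the lowest. The order depended on the transcript chosen. Of the 34 pairs of neighbours in this order, 32 differed by less than the larger of their SDs. The longest transcript of Ndufb7 retains an intron, and per kilobase of its longest coding transcript the level was 188 ± 72.7 CPM. On that scale Ndufa6 (438 ± 94.4) and Ndufa3 (398 ± 106) lay above Ndufa1 and Ndufb9, whose values did not change, and Ndufs5 (29.6 ± 20.1) followed Ndufb2 at the low end. The level of Ndufb2 was divided by 4371 bases on both scales, where the median longest coding transcript of the subunits has 971. Before this scaling its mean in cont mice was 79.6 CPM. Reads may have been split between near-identical genes, since 5 members share over 10% of their 75-base stretches with another gene. The bodies of 15 members overlap a gene on the other strand, and the strand setting of the counting is not given in the sources used here.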

How the data were processed

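Poly(A) RNA of mouse livers was sequenced by the authors as 75-base single-end reads. In the deposited table each mouse has a column of expected counts that the authors estimated per gene with RSEM, not scaled for library size. The submitters' processing notes name Trim Galore, STAR, RSEM and mm10, with no versions. The annotation is not given in the sources used here. The paper names TRIzol and the sample labels a column kit for the extraction. Columns were assigned by genotype and mouse number in the labels. Expected counts were rounded to whole numbers.

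Members and gene lists were chosen with earlier results of these data known. In R 4.3.3, edgeR 4.0.16 kept genes by filterByExpr, scaled by TMM and fitted the 3 genotypes in 1 quasi-likelihood model. A call needed a Benjamini-Hochberg FDR under 0.05 over 13922 genes and a fold change over 1.5. CPM are TMM-scaled, and fold changes of a list are medians without a test. Full values are given for the 2 lowest and the highest member of each module in Atg7-KO against cont, the 3 largest and 3 smallest differences between Atg7-KO;p62T352A and Atg7-KO, the members called against cont, Ndufa4 and Ndufa4l2, the extremes of each other list, Atg7 and Sqstm1. Of the members, 1 is counted but its own values are not reported here. Genes named beside these were chosen after their values were seen. Alternatives were DESeq2 1.42.0, its size factors, upper-quartile scaling, other filters and thresholds, the mouse number as a block, offsets for transcript length and GC content (GENCODE vM21), and mice left out. Tables and figures were made in Python 3.11.15 with pandas 2.3.3 and matplotlib 3.10.9.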

Additional observations from a re-analysis of the deposited data

How the results depend on the processing

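Over the alternatives run, the median of the members stayed below 0 in Atg7-KO against cont and above 0 in Atg7-KO;p62T352A against Atg7-KO, while single members changed sign. Ndufs5 was called higher in Atg7-KO without cont mouse 1 (0.98). With glmTreat, which tests against the 1.5-fold limit itself, 10 members were called lower in Atg7-KO mice, 23 higher in Atg7-KO;p62T352A than in Atg7-KO mice, and 0 higher than in cont, where 7 were called before. The offset for transcript length gave a median of 0.69 against Atg7-KO and of 0.044 with 1 call against cont. Offsets for transcript length and GC content, added after seeing the data, gave 0.70, 0.073 and 1 call. With the mice numbered 1 left out, the median of Atg7-KO against cont was -0.86, against 0.03 over all genes tested. Leaving out 1 mouse gave 16 to 24 calls and medians of -0.90 to -0.66 for Atg7-KO against cont, 25 to 31 calls and 1.00 to 1.30 for Atg7-KO;p62T352A against Atg7-KO, and 2 to 10 calls and 0.18 to 0.49 against cont. The median of -0.90 was found without cont mouse 2, where that of all genes tested was -0.11. Fits with a group of 2 mice assume that these vary like the others. Shares of all genes called under the alternatives are not reported here.

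The genotypes share mouse numbers, but nothing says that a number marks a litter or day. Number 1 did mark the mice with few Xist counts in every genotype, and the sample titles give no sex. Over all genes tested, the mean correlation of the deviations of same-numbered mice was 0.223 for number 1, -0.0303 for number 2 and 0.247 for number 3. Over the members it was -0.0635, -0.228 and 0.125 in the same order. The numbers were not taken as pairs. With the number as a replicate block, 20 members were called lower in Atg7-KO, 28 higher in Atg7-KO;p62T352A than in Atg7-KO and 5 higher than in cont. The block together with offsets for length and GC content gave medians of 0.71 and 0.076 in the latter 2 comparisons and 0 calls against cont.

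Among 990 values of named members under alternatives, 870 kept their direction and side of the threshold, 83 lost the call, 16 gained one and 21 changed sign, all in members not called before. These values include the FDR limit alone, which uses the same fit, so that no sign could change and no call could be lost there. Also included are fits without a mouse of the genotype not compared. In Atg7-KO against cont, Ndufs4 was 0.11 without cont mouse 1 and 0.045 without the mice numbered 1 (single mice left out gave -0.49 to 0.11), and Ndufs5 was -0.08 without cont mouse 2 and -0.03 without cont mouse 3 (at most 0.98). Against Atg7-KO, Ndufs5 was 0.02, 0.07 and 0.26 without Atg7-KO mouse 1, Atg7-KO mouse 3 and Atg7-KO;p62T352A mouse 3, and 0.032 without the mice numbered 1 (lowest without 1 mouse -0.38). Ndufs1 was 0.026 without Atg7-KO;p62T352A mouse 3 (lowest without 1 mouse -0.16) or without the mice numbered 1, 0.063 with both offsets and the block and 0.062 without the block. Ndufb6 was -0.075 with the length offset, -0.021 with both offsets and the block and -0.014 without the block. Ndufa4 was -0.056 with upper-quartile scaling, -0.01 and -0.52 without Atg7-KO mouse 2 and Atg7-KO;p62T352A mouse 2 (highest without 1 mouse 0.32), and -0.74, -0.62 and -0.59 with the length offset, both offsets with the block and both without it. The cause was not tested.

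Without Ndufa6, Ndufa9 and Ndufa11, whose module is less certain, the medians of the Q and proximal membrane modules in Atg7-KO were -0.99 and -0.70. In the 100 bases around the start, 21.9% of members held the SP1 letters. The highest level per kb was 16.6 times the lowest, and 24.1 times with the longest coding transcript, an alternative chosen after seeing the data. Ndufb2 was the lowest on both scales. Precision was lowest for Ndufs5 (SE 0.45) and Ndufa4 (SE 0.39) in Atg7-KO against cont.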
